A study of Homo sapiens with 24 samples.

Results

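The genes described are 10 of the 19 human WNT ligand genes, *WNT2B*, *WNT3*, *WNT3A*, *WNT4*, *WNT5A*, *WNT6*, *WNT7A*, *WNT7B*, *WNT10A* and *WNT11*, among 58051 gene identifiers counted in every library. They were chosen by name with earlier results of these data known, so counts of members called are descriptions only. Each was followed in 3 colorectal cancer cell lines, between *CTNNB1* knock-out (KO) and wild-type (WT) cells of a line, clone by clone and across the WT cells of the lines. *CTNNB1* encodes β-CATENIN, the protein that carries canonical WNT signals into the nucleus.

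The 24 libraries were polyadenylated RNA of HT29, HCT116 and SW480 cells. HT29 and SW480 carry inactivating *APC* mutations, and HCT116 carries a gain-of-function mutation of *CTNNB1* itself, so that the pathway is active in the WT cells of every line. Each line gave 2 WT clones, which had gone through the same CRISPR/Cas9 exposure and single-cell cloning but kept their *CTNNB1* alleles, and 2 KO clones in which exon 7 was deleted from both alleles. RNA-seq was done in a round A and a round B for each clone, which the study treats as independent biological replicates. That made 4 libraries per group: WT 11, WT 40, KO 28 and KO 38 for HT29, WT 4, WT 6, KO 44 and KO 47 for HCT116, and WT 4, WT 5, KO 17 and KO 21 for SW480. Each KO group therefore stands on a pair of single-cell clones, and the SW480 KO clones were described in the study as turning senescent when kept in culture for long. Values are read counts per gene divided by the library's size factor ("normalized read counts"), from 22297049 to 29068378 reads per library. With unsorted bulk RNA, fewer expressing cells and less RNA per cell cannot be told apart. Of 9 colorectal epithelium markers, 5 to 7 per group were above 3 reads in every library.

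WNT ligands are lipid-modified secreted proteins. They are acylated by PORCN in the endoplasmic reticulum, carried to the surface by WLS and bound there by Frizzled receptors with LRP5 or LRP6, which stabilises β-CATENIN, or with ROR and RYK receptors, which signal without it. *WNT3A*, *WNT3*, *WNT7A*, *WNT7B* and *WNT10A* are mostly known as ligands of the β-CATENIN branch, while *WNT5A* and *WNT11* are the usual examples of the β-CATENIN-independent branch. In the gut, epithelial Paneth cells and the stroma beneath the crypts are the known sources of WNT.

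The genes that moved in SW480 KO cells included a pair of neighbours, *WNT6* (chromosome 2, 219724528 to 219738955, plus strand, GRCh37) and *WNT10A* (chromosome 2, 219745574 to 219764303, plus strand), of which the second starts 6619 bases after the first ends. The 250 bases before their starts are shown with those of *WNT7A* and *WNT5A*, the other members that moved in this line and had an entry among the RefSeq promoters. The sequences are RefSeq, build GRCh38.p14, 5′ to 3′ along the gene, and capitals mark every CG dinucleotide.
WNT6, chr2:218859555-218859804, plus strand: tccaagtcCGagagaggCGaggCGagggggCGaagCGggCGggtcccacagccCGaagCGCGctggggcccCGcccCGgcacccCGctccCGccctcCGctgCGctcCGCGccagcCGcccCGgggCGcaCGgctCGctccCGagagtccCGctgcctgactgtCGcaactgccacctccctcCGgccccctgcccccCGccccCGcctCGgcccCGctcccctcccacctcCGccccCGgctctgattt
WNT10A, chr2:218880602-218880851, plus strand: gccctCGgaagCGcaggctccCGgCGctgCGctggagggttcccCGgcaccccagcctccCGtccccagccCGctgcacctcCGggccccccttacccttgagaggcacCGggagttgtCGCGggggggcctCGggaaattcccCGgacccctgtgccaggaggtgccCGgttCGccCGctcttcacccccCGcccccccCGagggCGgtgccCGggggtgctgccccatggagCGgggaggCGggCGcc
WNT7A, chr3:13880072-13880321, minus strand: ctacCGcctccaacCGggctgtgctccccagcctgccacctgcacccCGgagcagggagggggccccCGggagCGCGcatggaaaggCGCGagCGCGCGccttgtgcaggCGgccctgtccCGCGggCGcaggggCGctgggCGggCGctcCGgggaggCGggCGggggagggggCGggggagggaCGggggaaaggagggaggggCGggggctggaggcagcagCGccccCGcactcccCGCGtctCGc
WNT5A window 1, chr3:55487307-55487556, minus strand: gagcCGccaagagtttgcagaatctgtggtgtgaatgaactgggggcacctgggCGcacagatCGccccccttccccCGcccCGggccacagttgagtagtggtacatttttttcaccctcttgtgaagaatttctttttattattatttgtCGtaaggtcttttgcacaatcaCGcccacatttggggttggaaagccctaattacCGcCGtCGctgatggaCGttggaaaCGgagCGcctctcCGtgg
WNT5A window 2, chr3:55481399-55481648, minus strand: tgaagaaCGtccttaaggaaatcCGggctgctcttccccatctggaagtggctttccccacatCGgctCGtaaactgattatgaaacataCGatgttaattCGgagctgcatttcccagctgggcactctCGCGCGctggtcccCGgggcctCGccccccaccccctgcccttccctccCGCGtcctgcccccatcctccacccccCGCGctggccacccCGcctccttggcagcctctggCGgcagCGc

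RefSeq entries matched 8 of the 10 members, with 10 windows in all, and none was used for *WNT7B* or *WNT11*. The windows were rich in GC, from 52.8% to 86.8% against a median of 58.0% over 35116 windows of the same length, and 9 of the 10 were above that median. The *WNT6* window held 32 CG dinucleotides, *WNT10A* 24, *WNT7A* 29 and the *WNT5A* windows 14 and 18, against a median of 11. The TCF/LEF core was searched on both strands as CTTTGAA with its variant CTTTGAT, then as CTTTGTA with its variant CTTTGTT. It matched 0 of the 10 member windows and 11.96% of all windows.

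*CTNNB1* was read first, as the check of the knock-out. Its normalized read counts were 5883 to 6113 in the WT and 256 to 337 in the KO libraries of HT29, 10512 to 12800.1 and 187 to 255 in HCT116, and 43114 to 50939.5 and 839 to 1312 in SW480. The groups did not overlap in any line, and each library matched its label.

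WT cells of each line used a different set of ligands. Levels compared between genes are given per kilobase of annotated exon, as mean ± SD over 4 WT libraries. In HT29, *WNT11* was highest at 709.5 ± 140.3 normalized reads per kb. *WNT10A* and *WNT7B* followed at 163 ± 143 and 124 ± 77.5, which did not differ beyond their spread, and the other 7 members were at 3.69 or below. In SW480, *WNT5A* at 1347 ± 74.8 and *WNT6* at 1224 ± 245 stood far above *WNT11* at 47.5 ± 4.50, and the first pair did not differ beyond its spread. In HCT116 the highest members were *WNT3A* at 48.1 ± 11.4 and *WNT7B* at 45.6 ± 10.5, again within their spread of each other, and the rest were at 8.73 or below.

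The WT groups were then tested across lines with limma on log2(normalized read count + 1), where a gene was called at an adjusted p under 0.05 and an absolute log2 fold change over 1. Between HT29 and HCT116, 7 of the 10 members were called, against 37.5% of all genes tested. With 5 added before the log in place of 1 the count was 4, without *WNT3*, *WNT6* and *WNT7A*. *WNT6* and *WNT7A* passed the filter through their SW480 libraries, and their HT29 and HCT116 libraries overlapped at 12.012 or below. Between HT29 and SW480, 8 of 10 were called (40.1% of all genes), and between HCT116 and SW480, 7 of 10 (40.2%). These counts include genes that passed the filter through the line in which they were high. *WNT5A*, *WNT6* and *WNT7A* did so through SW480, and *WNT3A* through HCT116. Only *WNT4* was uncalled in all 3 of these comparisons, at 17.2 ± 10.9 normalized read counts in HT29, 18.6 ± 8.74 in HCT116 and 12.2 ± 3.57 in SW480.

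*WNT5A*, the prototype of the β-CATENIN-independent ligands, was read in quantity in SW480 alone. Its WT values were 9881 and 10064 in WT 4 and 8859 and 9744 in WT 5 of SW480, whereas the HT29 WT libraries held 2 reads in all and the HCT116 WT libraries 0. Against the limit of 3 reads over the group that a count of 0 allows, its SW480 WT level was at least 13817-fold higher than in HCT116. *WNT6*, known from kidney tubule and somite epithelium, was at 1775 and 1715 in WT 4 and 2553 and 2370.4 in WT 5 of SW480 and at 2.78 to 12.012 in HCT116 and 0 to 3.76 in HT29. Neither range reached that of SW480, and both lines differed from it (limma adjusted p = 3.25e-09 for HCT116 and 3.67e-10 for HT29). *WNT6* had passed the filter of this fit through its SW480 libraries, the group in which it was high.

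*WNT3A*, the ligand used to feed intestinal organoids, was highest in HCT116. Its WT values there were 162 and 93.7 in WT 4 and 168 and 152 in WT 6, against 1 read in all 4 HT29 WT libraries and 5 reads in the SW480 WT libraries. *WNT7B*, a ligand of lung and kidney development, was at 277 to 1026 in HT29 and 177 to 279 in HCT116, while the SW480 WT libraries held 4 reads together. Pooled and scaled for depth, the HT29 reads were 627 times those of SW480 (95% exact counting interval 245 to 2304, which covers counting error only). Between HT29 and HCT116 the *WNT7B* libraries overlapped, and the log2 difference of 1.22 ± 0.51 (SE) just passed (adjusted p = 0.0476). That call was lost without any 1 of the 4 HCT116 libraries or without either library of HT29 WT 40, and with the rounds of each clone added up. *WNT7A*, known from limb patterning, had 0 reads in HT29 WT, 0 to 6.66 in HCT116 WT and 39.5 to 65.6 in SW480 WT.

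*WNT11*, known from gastrulation movements, ranged over WT lines from 1682 ± 333 in HT29 through 113 ± 10.7 in SW480 to 15.8 ± 5.56 in HCT116, and each step was called (adjusted p = 2.11e-09 and 6.85e-08). *WNT10A*, a ligand of tooth and hair development, was higher in HT29 than in HCT116 by 3.64 ± 0.69 (SE) on the log2 scale (adjusted p = 0.000459) and than in SW480 by 3.62 ± 0.69 (adjusted p = 0.000454). HCT116 and SW480 WT cells had *WNT10A* at 25.5 ± 9.92 and 27.9 ± 16.1, with overlapping libraries. *WNT2B*, a stromal ligand in the gut, was low throughout, from 5.49 ± 3.07 in SW480 to 43.1 ± 6.41 in HCT116. *WNT3*, which mouse Paneth cells make, was at 3.87 ± 2.85 in HT29, 11.9 ± 1.82 in HCT116 and 23.3 ± 5.37 in SW480.

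**Figure D1:**
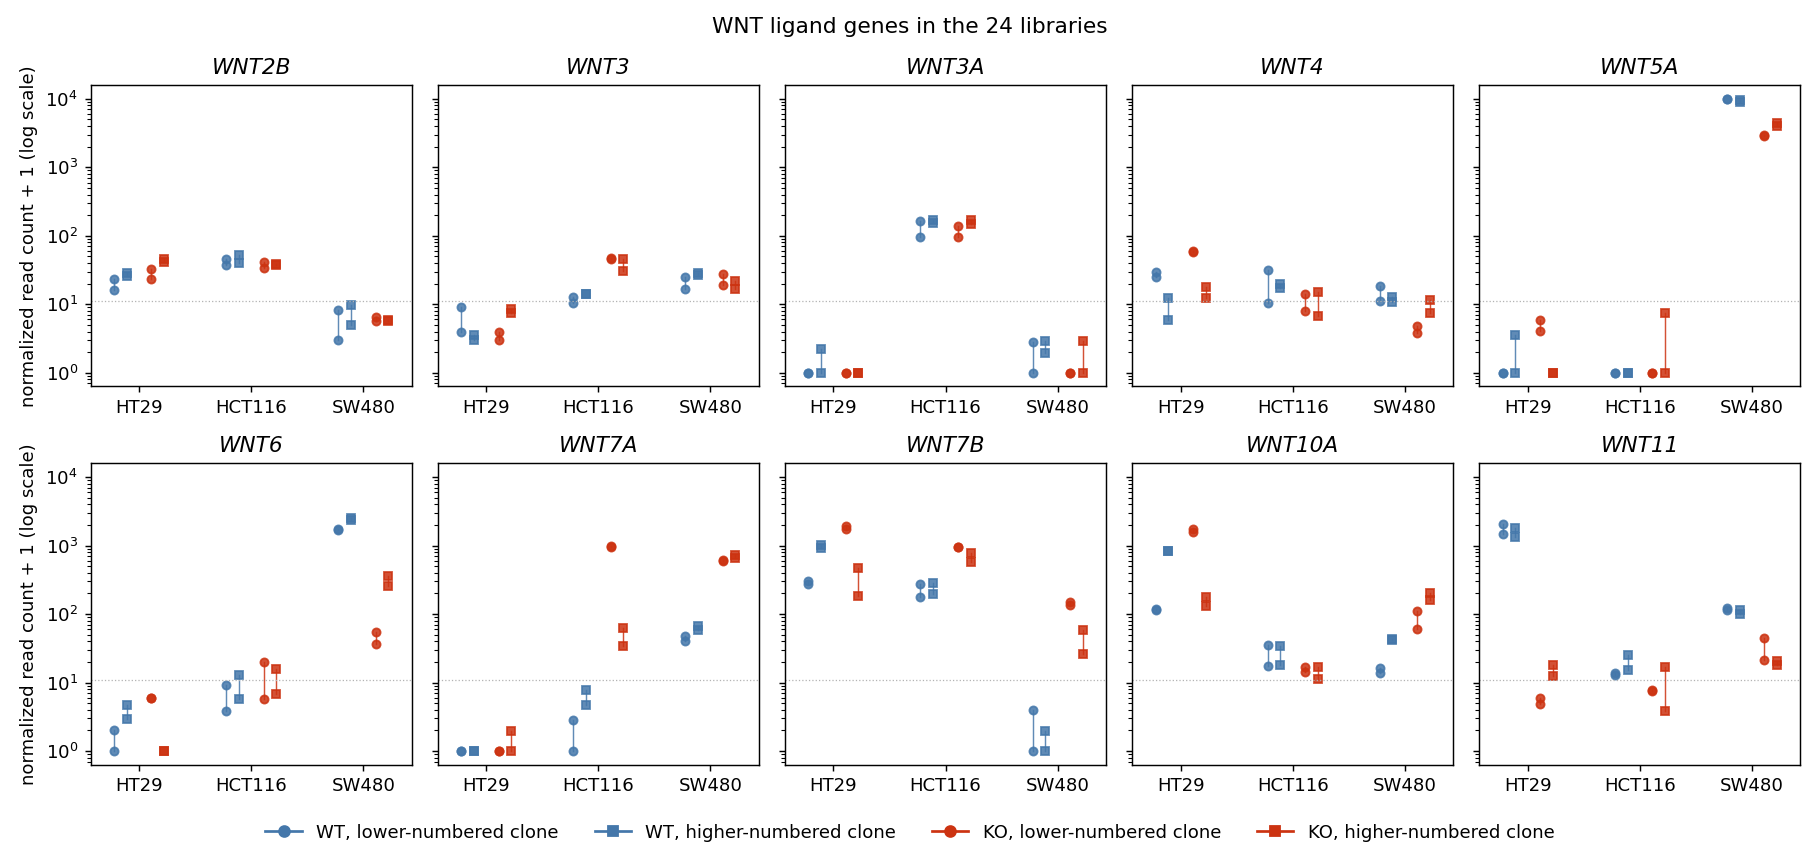
Normalized read count + 1 on a log axis for the 10 genes in the 24 libraries, with blue for WT, red for KO, circles and squares for the lower- and higher-numbered clone of a group, and a line joining the rounds of a clone. WNT5A and WNT6 stand high in SW480 alone, WNT11 is highest in HT29 WT, and the dotted line marks the filter value of 10.

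In HT29, the KO cells had lost nearly all of their *WNT11* transcript, and limma called no other member. Of the 5 members that passed the filter on low values (10 or more in at least 4 of the line's 8 libraries), *WNT11* fell and 4 were not called, where 2.30% of all genes tested were called and 0.402% were called lower. The *WNT11* values were 1478 and 2096 in WT 11 and 1357 and 1798 in WT 40, and 5.03 and 3.91 in KO 28 and 11.4 and 16.9 in KO 38. Every KO library was below every WT library, as the groups were apart for 13.0% of all genes tested, and the log2 fold change was -7.53 ± 0.42 (SE, n = 4 libraries per group, limma adjusted p = 6.64e-05). With the rounds of each clone added up, so that 2 clones stood against 2, the log2 fold change was -7.53 and the adjusted p 0.128; over the 19 alternatives the adjusted p ran from 1.23e-81 to 0.128.

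The antisense gene ENSG00000254933, whose span overlaps *WNT11* by 4347 bases on the opposite strand, cannot be told apart from it in the shared stretch of these unstranded libraries. Its own values were 2.88 to 6.26 in the HT29 WT libraries and 0 in the KO libraries.

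The next most abundant HT29 ligands split the clones rather than the genotypes. *WNT10A* was at 113 and 117 in WT 11 and 838 and 836 in WT 40, and at 1736 and 1554 in KO 28 and 178 and 129.6 in KO 38. The high clones were thus WT 40 and KO 28, one of each genotype, and the KO-against-WT log2 fold change of 0.69 ± 1.06 (SE) was not called (adjusted p = 0.772).

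*WNT7B* was at 277 and 304 in WT 11 and 909.9 and 1026 in WT 40, and at 1738 and 1916 in KO 28 and 472 and 182 in KO 38. The same clones were high and low as for *WNT10A*, and the log2 fold change of 0.46 ± 0.79 (SE) was not called either (adjusted p = 0.795). Without KO 28 the estimates changed sign, to -1.03 for *WNT10A* and -0.85 for *WNT7B*.

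*WNT4*, which directs kidney and gonad development, was at 24.005 and 28.4 in WT 11 and 4.94 and 11.3 in WT 40, and at 57.3 and 59.7 in KO 28 and 11.4 and 16.9 in KO 38. KO 28 was above every other clone, and the log2 fold change of 0.97 ± 0.70 (SE) was not called (adjusted p = 0.513). *WNT2B* was at 15.2 to 27.7 in WT and 22.1 to 44.1 in KO libraries, with overlap (adjusted p = 0.426). Its span overlaps *ST7L* by 6652 bases on the opposite strand, and reads there cannot be told apart. *WNT3*, *WNT3A*, *WNT5A*, *WNT6* and *WNT7A* did not pass the filter in HT29, with no value over 8.11 in any of the 8 libraries.

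Genes listed as markers of other cell types also differed between the genotypes of these single-cell clones, and any link to the WNT values was not tested. In HT29 the summed level of 5 fibroblast markers was 12.2 to 22.5 in WT and 109 to 1210.3 in KO libraries. There *LUM* was called higher while *COL1A2*, *DCN* and *PDGFRA* were at or under 3 reads in every library. *LUM* was at or under 3 reads in the WT libraries and passed the filter through its KO libraries alone. In SW480, of the leukocyte markers, *CD14* was called higher and *PTPRC* was at or under 3 reads in every library. The sum of 2 endothelial markers in SW480 was 9.65 to 27.4 and 116 to 234 in WT and KO libraries, with *VWF* called higher and *CDH5* at or under 3 reads. The fibroblast marker *COL1A2* was called lower in SW480. In HCT116, *COL1A1* alone of these markers passed the filter, and it was not called. Markers of the colorectal epithelium itself were called as well. *CDH17* and *KRT20* were higher in HT29 (of 7 tested), *CDH1* was higher and *KRT20* lower in HCT116 (of 6), and *CDX2* was lower in SW480 (of 6). Of all genes tested, 2.30%, 5.06% and 17.5% were called in these lines. *CDH17* in HT29 WT and *KRT20* in HCT116 KO libraries were at or under 3 reads. Each passed the filter there through the other group alone, in which it was high.

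In HCT116 the members that were called all rose in the KO cells. They were *WNT7A*, *WNT7B* and *WNT3*, 3 of the 8 members that passed the filter, where 5.06% of all genes were called and 3.17% were called higher. *WNT7A* had passed the filter through its KO libraries alone, the group in which it was high. *WNT7B* was at 276 and 177 in WT 4 and 279 and 194 in WT 6, and at 966 and 961 in KO 44 and 583 and 791 in KO 47. The groups did not overlap, as for 20.5% of all genes tested in this line. Both KO clones were up, and the log2 fold change was 1.83 ± 0.20 (SE, n = 4 per group, limma adjusted p = 0.000194).

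*WNT3* was at 11.9 and 9.28 in WT 4 and 12.9 and 13.3 in WT 6, and at 44.2 and 46.2 in KO 44 and 44.958 and 29.5 in KO 47. Its groups were apart too, as for 20.5% of all genes tested, and the log2 fold change was 1.70 ± 0.27 (SE, adjusted p = 0.00214). *WNT3* and *WNT9B* start 47 bases apart on opposite strands (chromosome 17, GRCh37), and *WNT9B* did not pass the filter in any line.

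*WNT7A* was at 1.83 and 0 in WT 4 and 3.70 and 6.66 in WT 6, and at 995 and 959 in KO 44 and 62.1 and 33.3 in KO 47. All KO libraries were above all WT libraries, where 20.5% of all genes tested did not overlap, but the KO clones were far apart. The WT libraries held 13 reads together, and the reads of the KO group, pooled and scaled for depth, were 173 times those of the WT group with an exact counting interval of 101 to 325. The log2 fold change was 6.07 ± 1.23 (SE, adjusted p = 0.0149), and it was 3.87 without KO 44 and 8.26 without KO 47. The call was lost with the rounds of each clone added up (adjusted p = 0.359), without WT 4A (0.0525), without clone WT 4 (0.115) and with the filter lowered to 1 read in 1 library (0.0741); over the 19 alternatives the adjusted p ran from 1.02e-06 to 0.359.

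The other 5 tested members of HCT116 were not called. *WNT3A*, the highest of the 10 per kb in WT cells of this line, was at 93.7 to 168 in WT and 95.1 to 168 in KO libraries, and its log2 fold change was -0.06 ± 0.24 (SE, adjusted p = 0.894). *WNT10A* was at 34.9 and 16.7 in WT 4 and 33.3 and 17.1 in WT 6, and at 15.7 and 13.2 in KO 44 and 16.1 and 10.5 in KO 47. Its groups did not overlap, as was so for 20.5% of the genes tested, with a log2 fold change of -0.77 ± 0.34 (adjusted p = 0.152). *WNT11*, at 11.9 to 24.024 in WT and 2.85 to 16.1 in KO libraries, had -1.03 ± 0.46 (adjusted p = 0.159). *WNT4* and *WNT2B* were at adjusted p = 0.226 and 0.548. *WNT6* and *WNT5A* did not pass the filter, at 4.71 to 18.7 and 0 to 6.42 in the KO libraries.

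SW480 had the most calls, in both directions. Of 8 members tested, *WNT7A*, *WNT7B* and *WNT10A* rose and *WNT5A*, *WNT6* and *WNT11* fell. *WNT7B* had passed the filter through its KO libraries alone, the group in which it was high. In this line 17.5% of all genes were called, 10.7% higher and 6.76% lower. The groups did not overlap for any of the 6, as for 46.2% of all genes tested.

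*WNT5A* was at 9881 and 10064 in WT 4 and 8859 and 9744 in WT 5, and at 2919.6 and 2859.8 in KO 17 and 4025 and 4375 in KO 21. It fell in both KO clones, by 1.47 ± 0.14 (SE) on the log2 scale (n = 4 per group, limma adjusted p = 1.12e-05), and at 496 ± 108 normalized reads per kb it was still the highest of the 10 in these cells, ahead of *WNT7A* at 143 ± 13.1. *WNT5A-AS1*, whose span overlaps it by 610 bases on the opposite strand, was at 119 to 164 in WT and 29.2 to 53.8 in KO libraries (log2 fold change -1.85 ± 0.21, adjusted p = 4.42e-05). Reads in the shared stretch cannot be assigned to either strand.

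*WNT6* was at 1775 and 1715 in WT 4 and 2553 and 2370.4 in WT 5, and at 53.6 and 35.8 in KO 17 and 354 and 255 in KO 21. Both KO clones were below both WT clones, KO 17 much more so, and the log2 fold change was -4.16 ± 0.70 (SE, adjusted p = 0.00129). Its downstream neighbour *WNT10A* went the other way, from 15.2 and 12.9 in WT 4 and 41.5 and 42.1 in WT 5, to 110.0 and 60.6 in KO 17 and 202 and 158 in KO 21. The log2 fold change of *WNT10A* was 2.27 ± 0.47 (SE, adjusted p = 0.00299), and KO 21 held more of both transcripts than KO 17.

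*WNT7A* was at 47.5 and 39.5 in WT 4 and 56.95 and 65.6 in WT 5, and at 592 and 612 in KO 17 and 664 and 725 in KO 21. The 4 KO libraries lay close together, and the log2 fold change was 3.62 ± 0.16 (SE, adjusted p = 5.85e-08). *WNT7B* was at 3.03 and 0 in WT 4 and 0 and 0.979 in WT 5, and at 149 and 136 in KO 17 and 25.2 and 57.6 in KO 21. It went from 4 reads in the WT group to 393 in the KO group, a ratio of 95.2 once pooled reads were scaled for depth, with an exact counting interval of 36.9 to 351. Its fitted log2 fold change of 5.48 ± 0.63 (SE, adjusted p = 5.67e-05) depends on the value added before the log and was 3.76 with 5 added.

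*WNT11* was at 123 and 115 in WT 4 and 115 and 97.9 in WT 5, and at 44.2 and 20.2 in KO 17 and 19.6 and 17.3 in KO 21. It fell by 2.21 ± 0.28 (SE) on the log2 scale (adjusted p = 9.13e-05) from a WT level far under that of HT29. *WNT4* missed the threshold at -1.04 ± 0.40 (adjusted p = 0.0543) and passed it without KO 21B or without the clone KO 21 (adjusted p = 0.0192 and 0.00957; over the 19 alternatives, 0.00957 to 0.349). *WNT3* was at 15.6 to 27.992 in WT and 15.9 to 26.6 in KO libraries (adjusted p = 0.598). *WNT2B* and *WNT3A* did not pass the filter, at 4.67 to 5.50 and 0 to 1.87 in the KO libraries.

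**Figure D2:**
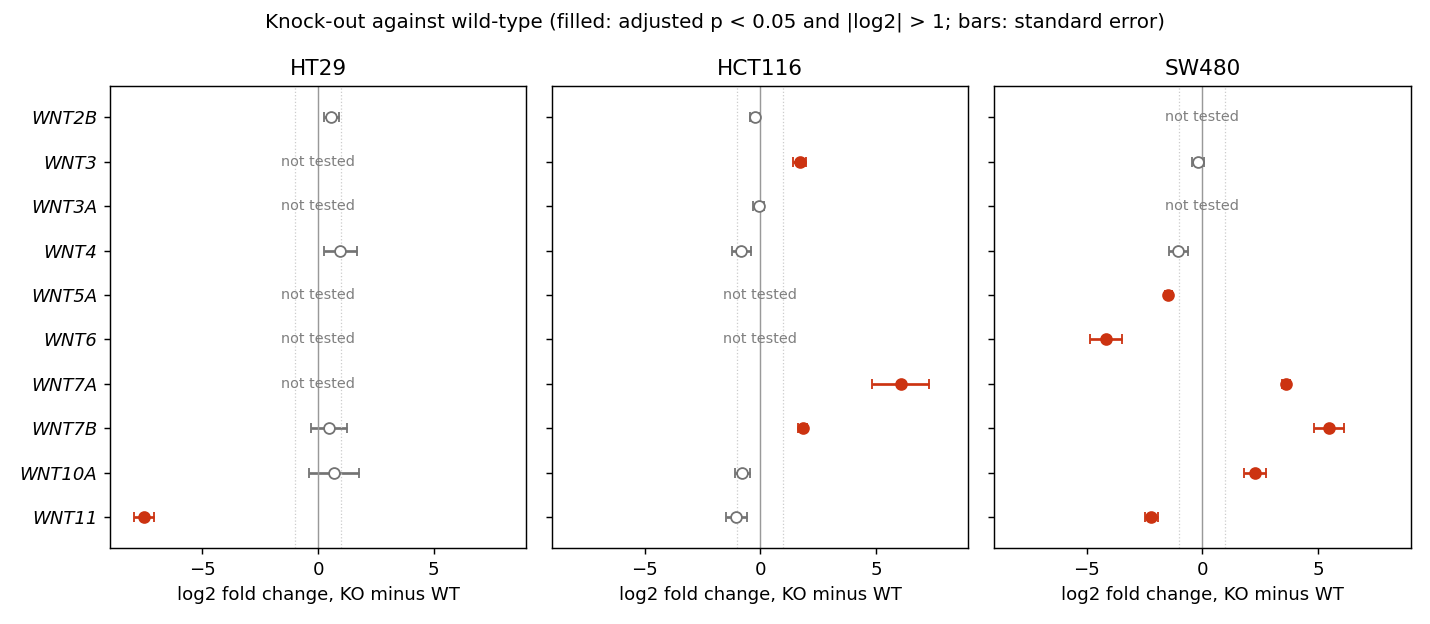
Log2 fold change of KO minus WT for the 10 genes in HT29, HCT116 and SW480, with bars for the standard error and filled red points for called genes. WNT11 at -7.53 is the only filled point in HT29, HCT116 has 3 filled points, all to the right of 0, and SW480 has 3 on each side.

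The KO effects themselves were compared between lines by an interaction term, over genes tested in both lines. The KO effect on *WNT11* was lower in HT29 than in the other lines, with a log2 difference of -6.49 ± 0.58 (SE) from HCT116 and -5.32 ± 0.58 from SW480 (limma adjusted p = 1.27e-07 and 8.67e-07). WT levels of *WNT11* were 15.8 ± 5.56 in HCT116 and 113 ± 10.7 in SW480, against 1682 ± 333 in HT29. A fall as large as that of HT29 could not be seen from the lower levels, so the difference rests partly on the WT levels. *WNT11* was the 1 called of 5 members compared between HT29 and HCT116, where 5.11% of all genes were called. Between HT29 and SW480, 2 of 4 were called (9.52% of all genes), *WNT11* and *WNT7B*. In SW480, *WNT7B* had passed the filter through its KO libraries alone, and its WT libraries held 4 reads together. The *WNT7B* effect was lower in HT29, with a difference of -5.01 ± 0.94 (adjusted p = 0.000697) that rests partly on that low SW480 WT level. That call and the 2 between HCT116 and SW480 were lost with the rounds of each clone added up.

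Between HCT116 and SW480, 2 of 6 were called (8.12% of all genes). The *WNT7B* effect was smaller in HCT116, with a difference of -3.65 ± 0.94 (adjusted p = 0.0116), a call that was lost with 5 added before the log. The *WNT3* effect was larger there, with a difference of 1.89 ± 0.50 (adjusted p = 0.0142). *WNT7A* rose in both lines, and its effects were not shown to differ (2.44 ± 1.10, adjusted p = 0.169). *WNT10A* rose in SW480 without a call in HCT116, and the difference of -3.04 ± 1.09 missed the threshold (adjusted p = 0.0753).

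Clones of one genotype differed in several of these genes. Each clone was read in rounds A and B only, so the errors of these clone differences come from the rounds of a clone alone. In HT29, the log2 difference of WT 11 minus WT 40 was -2.85 ± 0.21 (SE) in *WNT10A* (limma adjusted p = 0.00024) and -1.73 ± 0.39 in *WNT7B* (adjusted p = 0.0327). These were 2 of 5 members tested, where 7.58% of all genes were called, and *WNT7B* lost its call without any 1 of the 4 libraries. *WNT11* did not differ beyond its spread between the WT clones (0.17 ± 0.31, adjusted p = 0.822).

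KO 28 against KO 38 of HT29 gave calls for 4 of 5 members (12.5% of all genes). KO 28 was higher in *WNT10A* by 3.42 ± 0.21, in *WNT7B* by 2.63 ± 0.39 and in *WNT4* by 2.001 ± 0.459 (limma adjusted p = 8.37e-05, 0.00386 and 0.0244). It was lower in the little *WNT11* that was left, with a difference of -1.45 ± 0.31 (adjusted p = 0.0192). The calls of *WNT4* and *WNT11* were lost without 28A or without 28B. The difference between KO clones in *WNT10A* was larger than the estimated KO effect of 0.69 ± 1.06 in this line, whose error also holds the spread between clones.

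In HCT116 the WT clones gave no limma call among 8 members (1.44% of all genes), with *WNT7A* alone at an unadjusted p under 0.05 and 0 calls by edgeR. The libraries of HCT116 deviated together by round, and with the round as a block 1 member was called there, *WNT7A*, with 1.83 and 0 in WT 4 and 3.70 and 6.66 in WT 6. Between the KO clones 1 of 8 was called (3.28% of all genes), *WNT7A*, higher in KO 44 than in KO 47 by 4.39 ± 0.53 (adjusted p = 0.000968). *WNT7B* and *WNT3* did not pass between these clones (adjusted p = 0.262 and 0.679).

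In SW480, *WNT10A* was the 1 of 8 members called between the WT clones (1.97% of all genes), with a difference of WT 4 minus WT 5 of -1.51 ± 0.29 (adjusted p = 0.00255). Between the KO clones 3 of 8 were called (4.61% of all genes). The difference of KO 17 minus KO 21 was -2.75 ± 0.18 in *WNT6*, -1.12 ± 0.29 in *WNT10A* and 1.87 ± 0.64 in *WNT7B* (adjusted p = 1.08e-06, 0.0084 and 0.0396). Without 17B or without 21A *WNT10A* and *WNT7B* lost their calls, and *WNT7B* did so without 17A too. *WNT5A* was lower in KO 17 at an adjusted p of 5.16e-05, with a log2 difference of -0.54 ± 0.07, under the size set for a call.

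**Figure D3:**
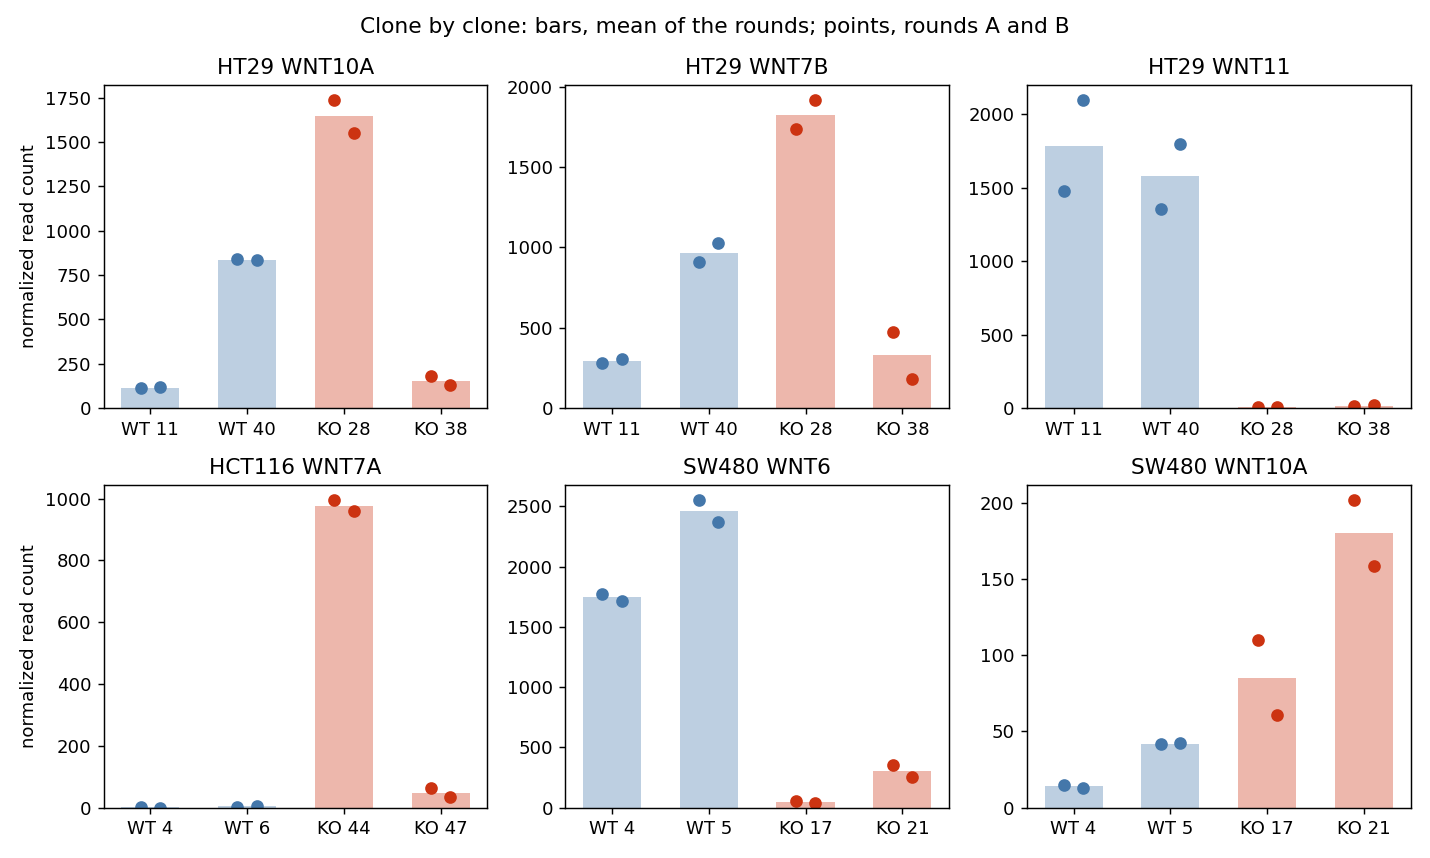
Normalized read counts by clone for 6 gene and line pairs, with bars for the mean of a clone's rounds, points for rounds A and B, blue for WT and red for KO. HT29 WNT10A and WNT7B are high in WT 40 and KO 28, HT29 WNT11 is near 0 in both KO clones, and HCT116 WNT7A is high in KO 44 and low in KO 47.

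The rest of the ligand family was read beside the 10. In HT29 0 of the 9 other ligand genes passed the filter, so that the 10 members held 97.6% to 99.7% of all ligand reads per kb in each clone. In HCT116 they held only 8.45% and 9.37% in the WT clones, since *WNT16* was the main ligand there, and 50.8% and 23.2% in KO 44 and KO 47. *WNT16*, a ligand of bone and joint, fell in HCT116, with 3396 to 3529.7 in WT and 154 to 268 in KO libraries (limma adjusted p = 6.93e-08), and *WNT9A*, known from joint formation, rose, with 282 to 426 in WT and 832 to 2286 in KO libraries (adjusted p = 0.00291). In SW480 the members held 95.1% and 94.8% in the WT clones and 58.1% and 72.9% in KO 17 and KO 21. There *WNT9A* rose as well, with 156 to 227 in WT and 1058 to 1769.8 in KO libraries, and *WNT16* and *WNT5B* fell (adjusted p = 4.2e-07, 0.00168 and 7.91e-05).

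Summed over all 19 genes, ligand reads per kb in SW480 were 2608 and 2967 in WT 4 and WT 5 and 1099.9 and 1373 in KO 17 and KO 21. *WNT5A* and *WNT6* made up 53.5% and 38.9% of the sum in WT 4 and 43.8% and 48.3% in WT 5, and *WNT6* was left at 26.0 reads per kb in KO 17 and 177 in KO 21. In KO 17 the first ligand was *WNT9A* with 39.9%, ahead of *WNT5A* with 36.7%, while *WNT5A* led in KO 21 with 42.8%. In HT29 the sum was 869 and 1152 in WT 11 and WT 40, 947 in KO 28 and 134 in KO 38. *WNT11* was first in both HT29 WT clones, with 86.8% and 57.8%, whereas *WNT10A* led in KO 28 with 59.5% and *WNT7B* in KO 38 with 48.0%. HCT116 sums were 1353 and 1416 in the WT clones and 931 and 974 in the KO clones.

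**Figure D4:**
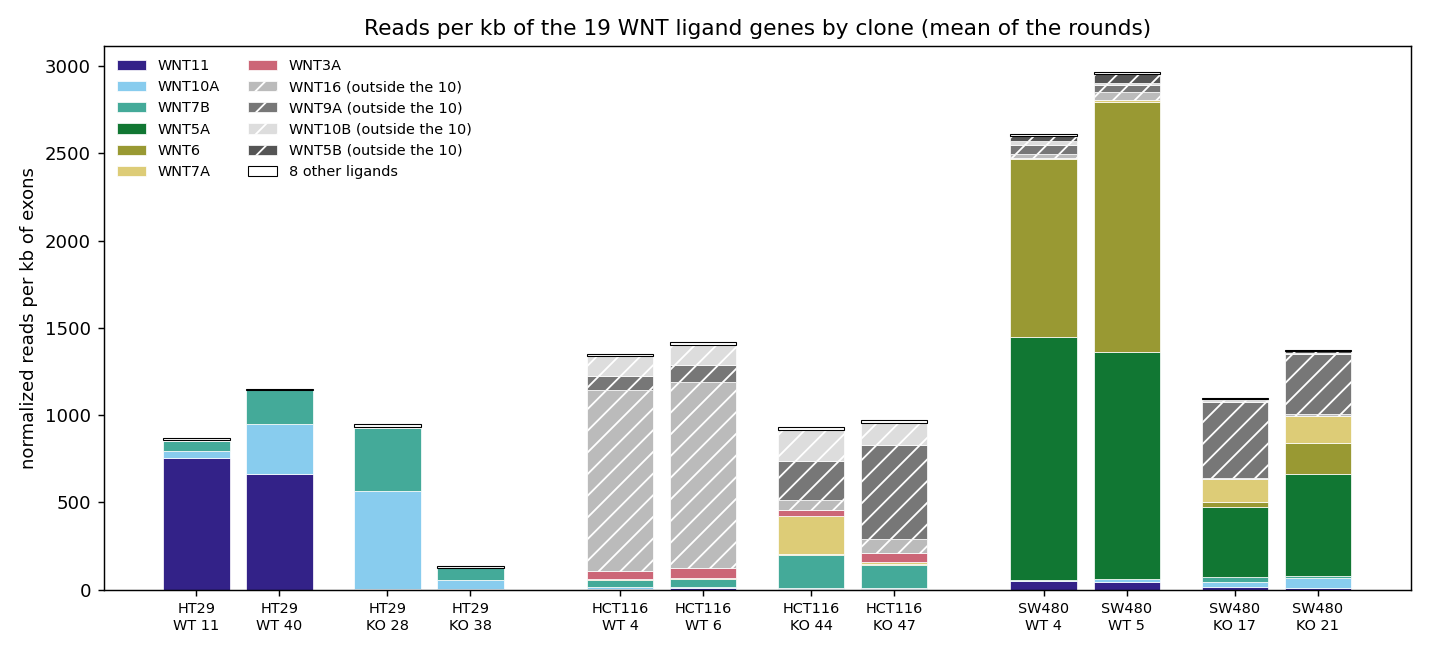
Normalized reads per kb of exons, stacked over the 19 WNT ligand genes for each of the 12 clones (mean of rounds A and B), with hatched grey shades for ligands outside the 10. WNT11 fills most of the HT29 WT bars and is 4.44% of the KO 38 bar, KO 38 has the shortest bar at 134, and WNT5A and WNT6 fill most of the SW480 WT bars.

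The machinery that makes and receives the ligands changed most in SW480, where most calls over all genes were also made. Of 12 genes of ligand processing and secretion tested there, *PORCN*, *TRABD2A* and *TRABD2B* rose and *NOTUM* fell, where 17.5% of all genes were called. *PORCN*, the acyltransferase that WNT proteins need for secretion, was at 535 and 463 in WT 4 and 431 and 398 in WT 5, and at 2268 and 2254 in KO 17 and 1655 and 1678 in KO 21. Its log2 fold change was 2.09 ± 0.13 (SE, limma adjusted p = 6.64e-07), and the effect was larger than in HT29 or HCT116 (interaction adjusted p = 1.75e-05 and 4.32e-06). *TRABD2A* and *TRABD2B* encode proteases that clip WNT proteins, and rose by 1.19 ± 0.11 and 4.26 ± 0.40 (adjusted p = 7.93e-06 and 1.17e-05). *NOTUM*, which removes the lipid and is itself a WNT target, fell, with 997 to 1502 in WT and 0.917 to 8.64 in KO libraries (adjusted p = 2.22e-07). *NOTUM* had passed the filter through its WT libraries alone, the group in which it was high. *WLS*, the carrier, was not called in any line.

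In HT29 1 of 10 tested genes of this list was called (2.30% of all genes), *TRABD2A*, at -5.29 ± 0.50 (SE, adjusted p = 0.00114). In HCT116 limma called 0 of 11 (5.06% of all genes), with 3 at an unadjusted p under 0.05 and 0 calls by edgeR or DESeq2. *WLS* and *VPS29* had adjusted p-values under 0.05 (0.0134 and 0.0109) with groups that did not overlap, as for 20.5% of all genes tested. They missed a call on size, at -0.64 ± 0.14 and 0.41 ± 0.09 (SE). The third, *VPS26A*, had an adjusted p of 0.108.

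Among receptors, *ROR1*, a receptor for WNT5A, went in opposite directions. It fell in HT29, with 1646 to 2566 in WT and 235 to 427 in KO libraries, and rose in SW480, with 220.2 to 304 and 1390.4 to 1580.2 (limma adjusted p = 0.000672 and 9.73e-08; interaction 4.43e-10). It was the 1 of 16 receptor genes called in HT29, where 2.30% of all genes were called. *FZD1* was the 1 of 19 in HCT116, a share near the 5.06% of all genes there, and rose by 1.16 ± 0.26 (SE, adjusted p = 0.0147). In SW480, where 17.5% of all genes were called, 4 of 19 rose, namely *FZD1*, *ROR1*, *RECK* and *ADGRA2*, and *FZD8* fell. *RECK* and *ADGRA2*, the co-receptors that WNT7A and WNT7B use on brain endothelium, rose by 1.00 ± 0.10 and 1.31 ± 0.18 (adjusted p = 1.37e-05 and 0.000179) in SW480. In HCT116, where *WNT7A* and *WNT7B* rose too, neither was called (adjusted p = 0.938 and 0.388). The KO effects on *RECK* and *ADGRA2* were not shown to differ between HCT116 and SW480. Of 18 receptor genes compared between these lines by the interaction, *ROR1* alone was called (8.12% of all genes).

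Of the secreted antagonists and R-spondins, 4 genes were tested in SW480, where *DKK3* and *FRZB* rose and *SFRP5* fell, in a line with 17.5% of all genes called. In HCT116 limma, edgeR and DESeq2 called 0 of 2, with 0 at an unadjusted p under 0.05. In HT29 only *DKK1* was tested, with no limma or edgeR call, an unadjusted p under 0.05 and a call by DESeq2. WNT/β-CATENIN target genes fell in every line in which they were called: 4 of 7 tested in HT29 (*AXIN2*, *LGR5*, *TCF7* and *ZNRF3*), 3 of 8 in HCT116 (*AXIN2*, *RNF43* and *TCF7*) and 11 of 11 in SW480. Of all genes tested, 2.30%, 5.06% and 17.5% were called in HT29, HCT116 and SW480. The share called lower was 0.402% in HT29 and 6.76% in SW480. Their median log2 fold change was -1.14, -0.96 and -4.74 in these lines, against 0.58, -0.14 and -0.61 for the tested WNT ligands and 0.03, -0.01 and -0.00419 for all genes tested.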

How the data were processed

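RNA of 24 libraries was prepared with an unstranded TruSeq kit, and the submitters' notes name bcl2fastq, STAR 2.7.5b, featureCounts 2.0.1 and DESeq2 with the genome build GRCh37. The deposited per-library tables hold a signal per gene rather than raw counts: the authors divided the reads of each gene by the library's size factor. All values were whole multiples of 1 read per library (100% within 0.01 reads), so reads were recovered by division and ranged from 22297049 to 29068378 per library. Tables of the authors' own comparisons, which hold fold changes and p-values, were not used. The annotation release the authors counted with is not given in the sources used here, and gene spans and exon lengths are from GENCODE on GRCh37.

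The values were compared with limma 3.58.1 (trend and robust moderation) on log2(value + 1), with p-values adjusted by Benjamini-Hochberg over all genes tested. A gene was tested if it had a value of 10 or more in at least 4 libraries of the fit. A fit within a line had 8 libraries. WT lines were compared in 1 fit of 12 libraries, so that a gene low in both compared lines could pass through the third. Interactions were in 1 fit of 24, over genes tested in both lines, and clones within the fit of a line. edgeR 4.0.16 (quasi-likelihood, TMM) on the recovered reads gave 295, 800 and 2864 calls for HT29, HCT116 and SW480, where limma gave 343, 779 and 2852, and DESeq2 1.42.0 was a further alternative. Others were a pseudocount of 5 or 0.5, a filter of 1 read in 1 library, the round as a block, rounds of a clone summed, and each library or clone left out. The script was tested on simulated data.

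Rounds A and B of a clone are not separate clones, so p-values over 4 libraries partly measure the spread between rounds. Rounds were taken to pair libraries where every same-round pair correlated over 0.1 in its deviations, which held in HCT116 (0.182 to 0.374 over 6 pairs) and not in HT29 (-0.309 to 0.424) or SW480 (-0.0411 to 0.127).

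The genes and lists were chosen with earlier results of these data known. Named genes are the 10 ligands, *CTNNB1*, the genes called from the lists of other WNT ligands, processing and secretion, receptors, antagonists and R-spondins and target genes, each ligand's neighbours and the genes most like it over the 12 clones. Marker lists covered colorectal epithelium, fibroblasts, leukocytes and endothelium, and 1 leukocyte marker is not reported here. R 4.3.3 and Python 3.11.15 were used.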

Additional observations from a re-analysis of the deposited data

Results flagged for a closer look

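In groups of 4 libraries, 50 group and gene combinations were examined for a library far from the other 3, by its gap as a share of the group's range, and 5 were above the critical value of Dixon's test. For independent, normally distributed values chance alone flags about 1 in 20 groups. The rounds of a clone are not independent and some groups hold few reads, so that rate need not hold here. *WNT11* in the SW480 KO group was highest in 17A, at 44.2 against 17.3 to 20.2 (share 0.892). *WNT3* was lowest in 47B of the HCT116 KO group, at 29.5 against 44.2 to 46.2 (share 0.883), and highest in 11B of the HT29 WT group, at 8.11 against 1.98 to 2.88 (share 0.852). *WNT5A* in the HCT116 KO group was 6.42 in 47A and 0 in the others (share 1.000). *WNT2B* in the SW480 KO group was 5.50 in 17B against 4.67 to 4.8 (share 0.843), which was 6 reads against 5.

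The KO effect differed between lines by the interaction test in limma for 3 genes. The log2 difference for *WNT11* was -6.49 between HT29 and HCT116 and -5.32 between HT29 and SW480 (adjusted p = 1.27e-07 and 8.67e-07). It rests partly on the lower WT levels of *WNT11* in HCT116 and SW480, which leave less room to fall. For *WNT7B* it was -5.01 between HT29 and SW480 and -3.65 between HCT116 and SW480 (adjusted p = 0.000697 and 0.0116). Both rest partly on the SW480 WT libraries, which held 4 *WNT7B* reads together. The gene passed the filter in SW480 through its KO libraries alone. For *WNT3* it was 1.89 between HCT116 and SW480 (adjusted p = 0.0142).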

How the results depend on the processing

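The clone is the main limit. With the rounds of each clone summed, the called members went from 1 to 0 in HT29, from 2 to 1 for the KO effects of HT29 against SW480 and from 2 to 0 for HCT116 against SW480. All genes called went from 343 to 0 in HT29 and from 779 to 359 in HCT116. In HT29 they were 780 with DESeq2, 217 with the round as a block and 145 to 331 without 1 library. The round as a replicate block changed no member's KO-against-WT call. It added 1 call, of *WNT7A*, between the HCT116 WT clones and took that of *WNT7B* between HT29 and HCT116 WT cells. With a pseudocount of 5, members called between HT29 and HCT116 WT cells went from 7 to 4. With the filter at 1 read in 1 library, the members called were 2 for the KO effects of HT29 against HCT116, 4 for HT29 against SW480 and 1 between the HCT116 WT clones. Without 1 library, the members called were 1 to 1 between the HT29 WT clones, 2 to 4 between the HT29 KO clones and 1 to 3 between the SW480 KO clones.

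Of 399 values of the 21 KO-against-WT changes under alternatives, 381 kept their direction and side of the threshold, 11 changed sign, 5 lost the call and 2 gained it. All 11 sign changes were of uncalled genes. In HT29 without KO 28 the log2 fold change was -0.033 for *WNT4*, -0.85 for *WNT7B* and -1.03 for *WNT10A*, and without WT 11 it was -0.40 for *WNT7B* and -0.74 for *WNT10A*. *WNT3A* in HCT116 ran from -0.25 to 0.10 without 1 library, and was 0.16 without KO 44 and 0.13 without WT 6. *WNT3* in SW480 was 0.035 without WT 5. Depth limits the members with a few reads per library, such as *WNT3A* in HT29 and SW480, which did not pass the filter there.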

Other observations

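The genes whose clone means followed a member most closely were looked up over the 12 clones (Pearson's r of log2(mean + 1), 19824 genes, a description in which clones of one line share their background). Identifiers without a symbol are not named. *WNT5A* went with *CDH11*, *GNG11* and *NPTX2* (r = 0.995, 0.995 and 0.994). *WNT3A* went with *PRAME*, *ZFHX4* and *SH3GL3* (r = 0.996, 0.994 and 0.993). *WNT7B* went with *MBP* and *EFNB2* (r = 0.987 and 0.979), *WNT6* with *NCALD* (0.978), *WNT7A* with *HIVEP3* (0.962), *WNT10A* with *DEDD2* (0.967), *WNT2B* with *CCDC47* (0.985) and *WNT3* with *MORN4* (0.955). For *WNT11* and *WNT4* the closest genes were less close, *HACD1* at 0.911 and *KCNAB1* at 0.874. Among the members themselves, *WNT5A* and *WNT6* went together (r = 0.911), as did *WNT3* and *WNT7A* (r = 0.843). *WNT5A* ran opposite to *WNT2B* (r = -0.956) and *WNT7B* (r = -0.818), *WNT6* to *WNT7B* (r = -0.880) and *WNT3* to *WNT10A* (r = -0.832).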
